A study of Mus musculus with 12 samples.

Results

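Mitochondrial fatty acid oxidation and its regulation by the nuclear receptor PPARA were examined through 37 genes, chosen by name from the 46882 gene names in the deposited kidney count table. The 37 are Ppara itself, the carnitine shuttle, the enzymes that shorten fatty acids in mitochondria, the electron transfer flavoprotein, acyl-CoA synthetases and thioesterases, lipid uptake and storage proteins, and other PPARA targets. The rule uses gene names and no measured value. All 37 had a row in the table and all 37 passed the filter on low counts. RNA was sequenced from whole kidneys of C57BL/6 mice of 6 to 8 weeks, 6 wild type (WT) and 6 homozygous for loss of A1cf (A1cf KO). No treatment is named for either group, and the labels do not say how the A1cf allele was made or give the sex of the animals. A1cf encodes an RNA-binding protein known as a cofactor of the cytidine deaminase APOBEC1. Each library is named by the animal number in its label. WT libraries came from animals 573, 590, 601, 776, 777 and 778. A1cf KO libraries came from 574, 584, 588, 591, 602 and 780.

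Fatty acids enter cells through carriers such as CD36, are activated to acyl-CoA esters, and cross into mitochondria as carnitine esters made by CPT1 and turned back by CPT2. Inside, each round of beta-oxidation runs through an acyl-CoA dehydrogenase, a hydratase, a second dehydrogenase and a thiolase, and the first of these passes its electrons to the electron transfer flavoprotein. PPARA is a fatty acid sensor that pairs with RXR on DNA and raises many of these genes, most of all in fasting. The proximal tubule of the kidney reabsorbs most of the filtered solute and relies on fatty acids as its main fuel.

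The depth and identity of the libraries were as follows. The shallowest library, WT 776, held 26671705 counts and the deepest, A1cf KO 574, held 52899139. A1cf stood at 45.2 to 65.7 CPM (counts scaled to a common library total with TMM factors) in WT but only 2.95 to 6.11 CPM in the knockouts, and all 12 libraries fitted their labels. Summed CPM of 14 proximal tubule markers was 21440 to 29390 in WT and 23270 to 30230 in A1cf KO. Heart and skeletal muscle markers, which also mark tissues rich in fatty acid oxidation, summed to between 0.709 and 2.25 CPM in every library. Markers of white and brown fat varied between animals, with sums of 77.7 to 597 (WT) and 69.7 to 875 (A1cf KO), highest in WT 777 and A1cf KO 602. Loop of Henle markers summed to 5094 to 7420 CPM (WT) and 3864 to 4906 CPM (A1cf KO), without overlap. Fold changes were negative for 10 of 10 of them, for 7 of 7 distal convoluted tubule markers (median -0.22) and for 9 of 9 collecting duct markers tested (median -0.23), and positive for 7 of 8 macrophage markers (median 0.30). By edgeR 0 of these passed (9, 2, 3 and 4 at an unadjusted p under 0.05, in that order), by DESeq2 5 loop of Henle and 2 macrophage markers did, and the part of these lists in the differences below was not tested. In whole-kidney RNA, fewer cells of a type and less RNA per cell cannot be told apart.

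Sequences upstream of a RefSeq transcription start are shown for the members on which the results below turn. PPARA with RXR binds a direct repeat with 1 spacer base, called DR1. The motif searched was AGGTCANAGGTCA, on both strands, in the 250 bases before each RefSeq start (GRCm38.p6, the assembly named mm10), allowing 2 mismatches among its 12 defined letters. Of the 37 genes, 33 matched a window by symbol, and 5 of these (15.2%) held a match, namely Echs1, Etfa, Cd36, Fabp1 and Plin2. Among all 27025 genes with a window of the same length, 1005 (3.72%) held one. The matches began 83 bases before the start in Echs1, 77 in Etfa, 63 in Cd36, 67 in Fabp1 and 225 in Plin2. The Cd36 start used lies inside the counted gene, chr5:17781690-17888801 on the minus strand, so its window lies before an internal start. Fabp1 matched in 11 of the 12 letters and the other four in 10, and the match lay on the gene's own strand in Echs1 and on the opposite strand in the others. Etfa and Cd36 are shown because they had the lowest unadjusted p between genotypes of the members with positive fold changes. Fabp1 is shown because its match was the closest, and Plin2 because its correlation with Pdk4 was the highest. Pdk4 is shown because it had the widest fold range between libraries (10.5-fold) and its window held no match. Each is written 5' to 3' on the gene's strand, up to the start or to the first counted exon base, with matches to the motif in capitals.
Etfa, chr9:55512244-55512493, minus strand: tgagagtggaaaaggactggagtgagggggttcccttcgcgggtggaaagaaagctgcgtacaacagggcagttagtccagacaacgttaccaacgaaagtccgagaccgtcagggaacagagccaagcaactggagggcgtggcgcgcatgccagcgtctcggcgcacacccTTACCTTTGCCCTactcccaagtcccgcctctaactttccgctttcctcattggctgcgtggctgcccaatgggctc
Cd36, chr5:17835897-17836146, minus strand: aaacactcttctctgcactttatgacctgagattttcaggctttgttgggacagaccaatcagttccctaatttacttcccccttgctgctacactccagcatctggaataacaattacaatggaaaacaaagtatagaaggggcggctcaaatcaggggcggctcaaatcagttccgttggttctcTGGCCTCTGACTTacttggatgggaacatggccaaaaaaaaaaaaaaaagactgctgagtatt
Fabp1, chr6:71199629-71199826, plus strand: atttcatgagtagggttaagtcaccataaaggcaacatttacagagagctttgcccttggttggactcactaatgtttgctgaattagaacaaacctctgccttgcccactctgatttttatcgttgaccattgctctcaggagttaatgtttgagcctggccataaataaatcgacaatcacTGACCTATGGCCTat
Plin2, chr4:86670061-86670309, minus strand: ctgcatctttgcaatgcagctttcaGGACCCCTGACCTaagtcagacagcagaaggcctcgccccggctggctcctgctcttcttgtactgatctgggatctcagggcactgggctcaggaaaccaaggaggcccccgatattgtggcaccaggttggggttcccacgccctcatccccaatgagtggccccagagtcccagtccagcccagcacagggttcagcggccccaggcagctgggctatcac
Pdk4, chr6:5496310-5496528, minus strand: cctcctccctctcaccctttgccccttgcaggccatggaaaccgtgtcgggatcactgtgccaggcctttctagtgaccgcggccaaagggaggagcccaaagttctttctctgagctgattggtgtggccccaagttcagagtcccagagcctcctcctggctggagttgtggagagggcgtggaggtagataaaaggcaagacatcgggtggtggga
A match is a description of letters, and no binding was measured in these samples.

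Most of the 37 genes differed little in mean between kidneys with and without A1cf. With A1cf KO relative to WT, 18 log2 fold changes were positive and 19 negative, with a median of -0.00069 against -0.0030 over all 16910 genes tested. The difference was under 0.1 in size on the log2 scale for 27 of the 37, against 8276 of all 16910 genes. The median size was 0.083 against 0.103 over all genes. By the edgeR quasi-likelihood test with Benjamini-Hochberg adjustment over all genes, 0 of the 37 passed an adjusted p of 0.05, where 0.0473% of all genes did (8 of 16910). Of all genes 0.0118% passed higher and 0.0355% lower in A1cf KO, and of the members 0 in either direction. The lowest edgeR adjusted p among the members was 0.15. At an unadjusted p under 0.05 there were 4 members (10.8%), Etfa, Cd36, Acsm2 and Acad12, against 10.4% of all genes. DESeq2 called 1 member, Etfa, where it called 1.11% of genes (0.59% in the same direction, higher), and limma-voom called 0. The measurement was precise for most members. The 95% interval of the fold change lay within 1.5-fold of no difference for 32 of the 37 genes, against 11605 of all 16910. It lay within 2-fold for 35, against 14928 of all 16910, the exceptions among the members being Fabp1 and Pdk4.

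**Figure D1:**
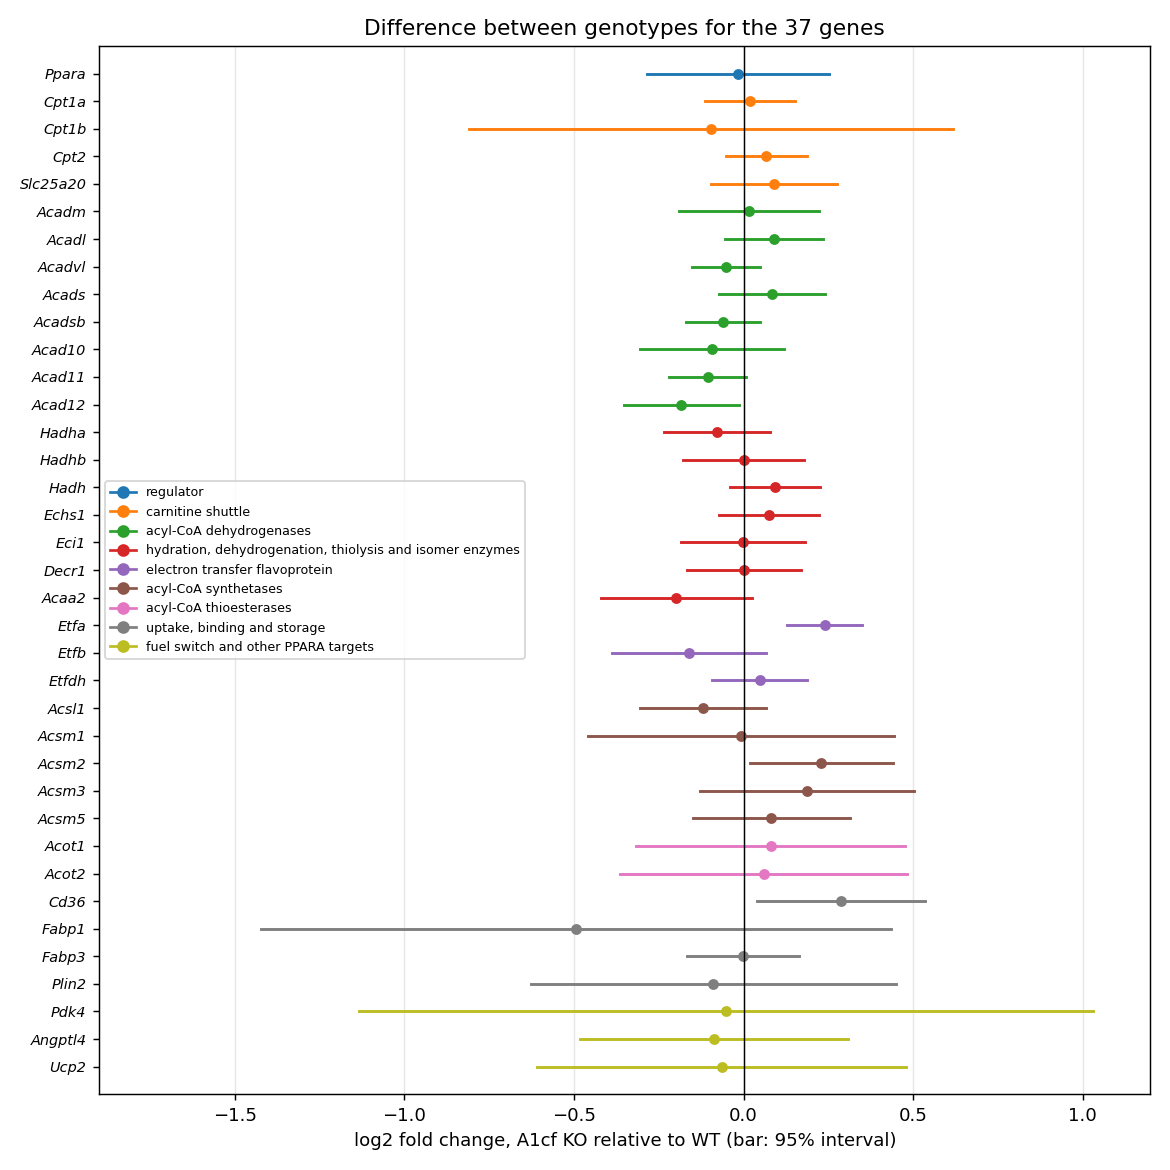
Log2 fold change of A1cf KO relative to WT (x axis) for each of the 37 genes (y axis), with 95% intervals from the edgeR fit and colours for the role of each gene. Points lie on both sides of 0, 18 positive and 19 negative, and the widest intervals belong to Pdk4 and Fabp1.

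Levels between genes were compared per length, as CPM per kilobase of merged exon (RPKM). Acsm2, a medium-chain acyl-CoA synthetase of the kidney, was the highest member at 633 RPKM in WT and 742 in A1cf KO. The mitochondrial thiolase gene Acaa2 followed at 300 and 261 RPKM, then the medium-chain dehydrogenase gene Acadm at 252 and 255, and the long-chain dehydrogenase gene Acadl at 240 and 256. The lowest was Cpt1b, the muscle form of the outer carnitine palmitoyltransferase, at 0.285 and 0.267 RPKM. Its paralog Cpt1a, the liver and kidney form, stood at 174 and 176 RPKM. Fabp1, the liver fatty acid binding protein, was second lowest at 8.62 and 6.07 RPKM. In summed CPM the 37 genes made up 15103 ± 681 CPM (WT) and 16112 ± 1228 CPM (A1cf KO, SD, n = 6 each), of which Acsm2 took between 27.7% and 38.9% in each library.

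**Figure D2:**
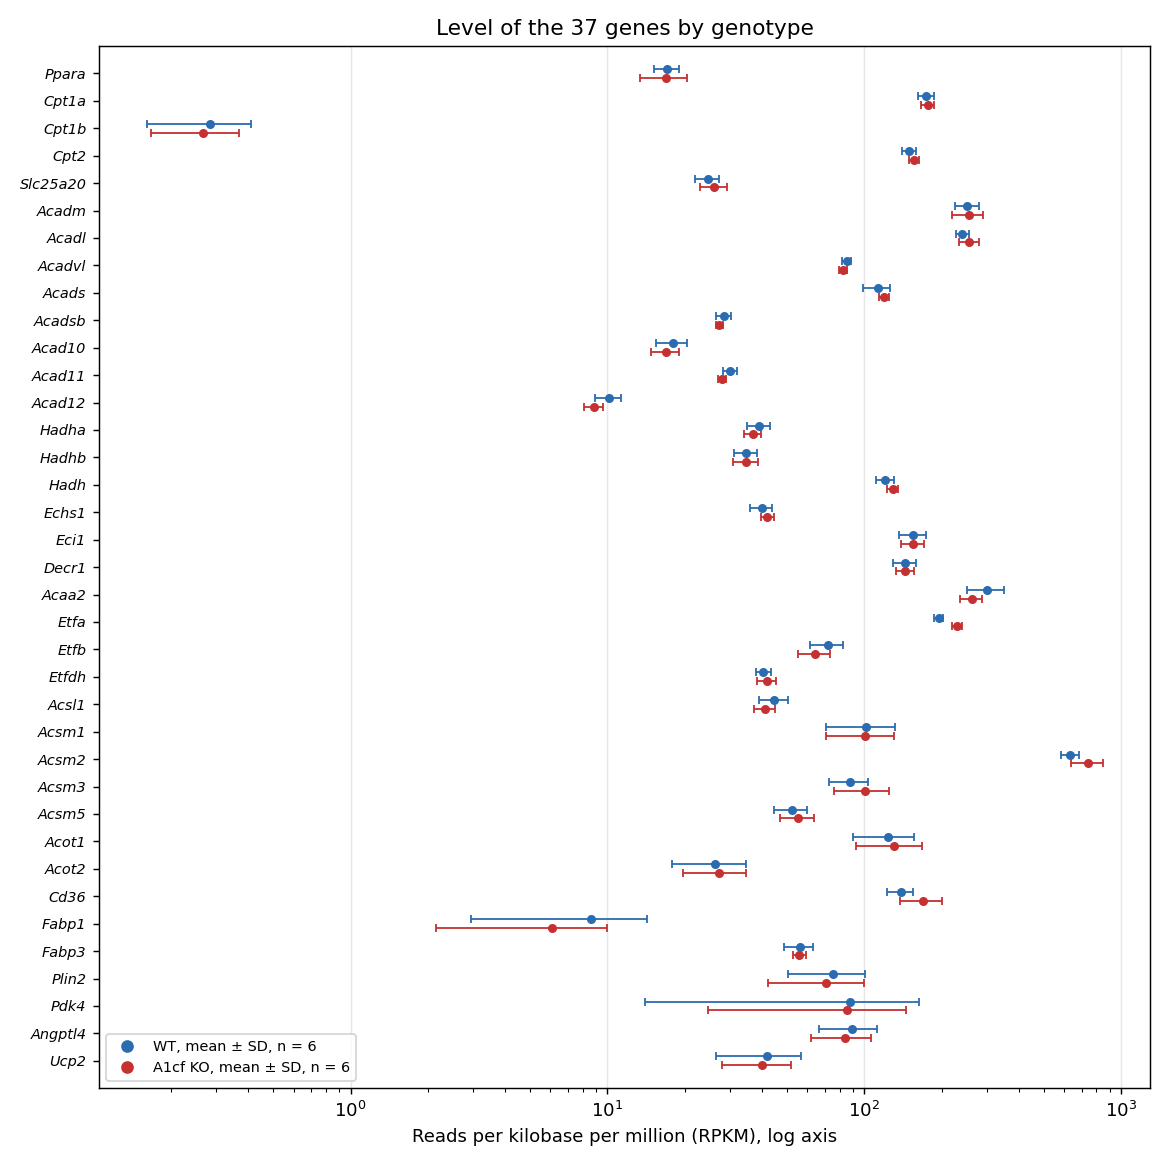
Mean level of each gene (y axis) in RPKM on a log axis (x axis), for WT (blue) and A1cf KO (red), with SD over 6 animals. The mean levels run from below 1 RPKM for Cpt1b to 742 RPKM for Acsm2, and the genotypes lie side by side at nearly every gene.

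The regulator and the genes of the shuttle differed little in mean between genotypes. Ppara was lowest at 56.4, median 67.0 and highest at 72.9 CPM over the WT animals, and 43.8, 67.7 and 82.9 CPM over the A1cf KO animals, with overlapping ranges (log2 fold change -0.02, SE 0.13, edgeR adjusted p = 0.98). With each library left out in turn its log2 fold change lay between -0.098 and 0.075, the latter without A1cf KO 602, its lowest library. Cpt1a, the rate-controlling step of entry, was at 701, 729 and 825 CPM (WT) and 691, 775 and 798 CPM (A1cf KO). Its 95% interval ran from -0.11 to 0.15 on the log2 scale. Cpt2, the inner transferase, was at 357 ± 21.9 CPM (WT) and 374 ± 17.6 CPM (A1cf KO), and the carnitine-acylcarnitine carrier Slc25a20 at 119 ± 12.8 and 126 ± 14.9 CPM (SD, n = 6 each). Cpt1b averaged 0.960 and 0.901 CPM. Because 81.4% of the Cpt1b exon bases also lie in exons of Chkb on the same strand, its low count and RPKM may not reflect its level.

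The acyl-CoA dehydrogenases, which open each round of oxidation and differ in the chain length they accept, had 3 positive and 5 negative fold changes of 8. Acadm spanned 838 to 1117 CPM in WT (median 990) and 857 to 1206 CPM in A1cf KO (median 939). These ranges overlapped nearly throughout, and the log2 fold change was 0.02 (SE 0.10). The other members for straight chains were Acadl at 482 ± 28.1 and 513 ± 47.1 CPM, Acadvl at 229 ± 8.68 and 221 ± 7.93, and Acads at 256 ± 30.6 and 271 ± 11.3 (WT and A1cf KO, SD, n = 6 each). Acadvl shares 42.9% of its exon bases with Dvl2 on the opposite strand. Acadsb, which acts on branched chains, was at 127 and 122 CPM, and its relatives Acad10 and Acad11 at 109 and 102 CPM and at 281 and 261 CPM. Acad12 was the member of this family with the lowest p. It was lowest at 57.6, median 64.8 and highest at 77.0 CPM in WT animals, against 51.8, 57.3 and 64.8 CPM in knockouts. The 3 WT libraries 590, 601 and 778 stood above every A1cf KO library, and the other 3 overlapped with them (log2 fold change -0.18, SE 0.079, edgeR adjusted p = 0.44). Acad10 and Acad12 are neighbours on chromosome 5, and 15.7% of the 50-base words of Acad12 transcripts also occur in Acad10.

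Among the later enzymes of the spiral, Decr1 (log2 fold change 0.00034), Hadhb (0.00055) and Eci1 (-0.00069) had the smallest genotype differences of the set. Hadha and Hadhb encode the alpha and beta subunits of the trifunctional protein, start 273 bases apart in opposite directions, and stood at 340 ± 34.2 and 321 ± 24.2 CPM and at 229 ± 23.6 and 229 ± 25.5 CPM (WT and A1cf KO, SD, n = 6 each). Part of the Hadhb sequence, 18.1% of its 50-base words, also occurs in Gm13910. Eci1 and Decr1, which prepare unsaturated chains, were at 169 CPM in both genotypes and at 559 CPM in both. Hadh, the dehydrogenase for shorter chains, was at 600 ± 47.1 and 640 ± 30.6 CPM, and the hydratase Echs1 at 210 ± 21.1 and 221 ± 13.1 CPM. Acaa2 was the exception in size. It was lowest at 360, median 484 and highest at 523 CPM in WT animals, against 352, 389 and 448 CPM in knockouts. Of the WT libraries 4 stood above every A1cf KO library, while WT 573 and WT 777 lay within their range (log2 fold change -0.20, SE 0.10, edgeR adjusted p = 0.52).

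Etfa was the member whose genotypes separated. It encodes the alpha subunit of the electron transfer flavoprotein, lies at chr9:55454508-55512243 on the minus strand of mm10 in 15 exon segments, and shares no exon base with another gene. In WT it was at 368 CPM in animal 573, 371 in 590, 368 in 601, 338 in 776, 338 in 777 and 359 in 778. In A1cf KO it was at 412 CPM in animal 574, 400 in 584, 433 in 588, 404 in 591, 429 in 602 and 451 in 780. Every A1cf KO library was above every WT library, which held for 1 of the 37 members and for 0.84% of all genes (0.319% in this direction). The means were 357 ± 15.3 CPM (WT) and 422 ± 19.5 CPM (A1cf KO, SD, n = 6 each), a log2 fold change of 0.24 (SE 0.052, 95% interval 0.13 to 0.35). It did not pass by edgeR's quasi-likelihood test, where the unadjusted p was 0.00035 and the edgeR adjusted p = 0.15. By DESeq2 it passed (DESeq2 adjusted p = 0.00053). Leaving out each library in turn gave log2 fold changes from 0.22 to 0.25 with edgeR adjusted p from 0.14 to 0.29. Within animals 573 to 602 the log2 fold change was 0.17 (edgeR adjusted p = 0.61). The partner subunit gene Etfb was not higher in A1cf KO, at 83.7 ± 12.4 and 74.9 ± 10.7 CPM (log2 fold change -0.16, edgeR adjusted p = 0.63). Of the Etfb exon bases, 58.2% lie in exons of other genes on the same strand. Etfdh, the dehydrogenase that hands the electrons on to ubiquinone, was at 303 ± 20.3 and 313 ± 26.4 CPM.

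Acyl-CoA synthetases activate fatty acids, and 3 of the 5 fold changes were positive. Acsm2 was lowest at 4391, median 4811 and highest at 5303 CPM in WT animals, against 4342, 5773 and 6480 CPM in knockouts. In A1cf KO 4 libraries stood above every WT library, and A1cf KO 584 was the lowest of all 12 (log2 fold change 0.23, SE 0.098, edgeR adjusted p = 0.44). It was 0.11 within animals 573 to 602. Acsm3 was at 435 ± 76.0 and 495 ± 118 CPM, and 39.7% of its exon bases overlap Eri2 on the opposite strand. Acsm1 was at 221 ± 66.4 and 220 ± 65.6 CPM, Acsm5 at 150 ± 22.0 and 159 ± 23.6 CPM, and the long-chain enzyme Acsl1 at 421 ± 54.6 and 387 ± 35.2 CPM (SD, n = 6 each). Kidney genes raised by androgen, a list of 8, were positive in 7 with a median log2 fold change of 0.26. By edgeR 4 of them had an unadjusted p under 0.05 (10.4% of all genes) and 0 passed. DESeq2 called 1 (1.11% of all genes), and edgeR called 1 between the runs of animal numbers described below (2.9% of all genes). The summed CPM of the 8 was 28450 to 40690 (WT) and 30280 to 46480 (A1cf KO), and their part in the Acsm values was not tested.

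Cd36, the fatty acid translocase of the cell surface, had the largest positive fold change of the members. It was at 513 CPM in WT 573, 471 in 590, 545 in 601, 420 in 776, 579 in 777 and 464 in 778. In A1cf KO it was at 623 CPM in animal 574, 466 in 584, 583 in 588, 513 in 591, 698 in 602 and 768 in 780. The highest 4 libraries were all A1cf KO, and the other 2 fell within the WT range. The means were 499 ± 58.5 and 609 ± 113 CPM (SD, n = 6 each), a log2 fold change of 0.29 (SE 0.12) with edgeR adjusted p = 0.41 and DESeq2 adjusted p = 0.28. Fat cells also express Cd36. Of the 10 fat markers 8 were tested, and 7 of those were positive, none of them past the threshold. Adipoq, a defining fat cell gene, ran from 0.083 CPM in A1cf KO 588 to 62.6 CPM in A1cf KO 602. Without WT 777 and A1cf KO 602, the libraries with the most fat marker RNA, the Cd36 log2 fold change was 0.29 (edgeR adjusted p = 0.39) and that of Etfa 0.22 (edgeR adjusted p = 0.22). Within animals 573 to 602 that of Cd36 was 0.18 (edgeR adjusted p = 0.77), and without A1cf KO 780, its highest library, 0.21. With WT 777 and A1cf KO 602 left out, fat marker sums ran from 77.7 to 242 CPM in WT. In A1cf KO they then ran from 69.7 to 487 CPM, highest in 780. The part of fat RNA in the Cd36 value was not tested further. The heart form Fabp3 was at 46.1 ± 6.05 and 46.0 ± 2.68 CPM. Fabp1 was at 4.77 ± 3.14 and 3.36 ± 2.17 CPM with a 95% interval of -1.42 to 0.43 on the log2 scale, so a difference of 2-fold could not be told from none at this spread.

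**Figure D3:**
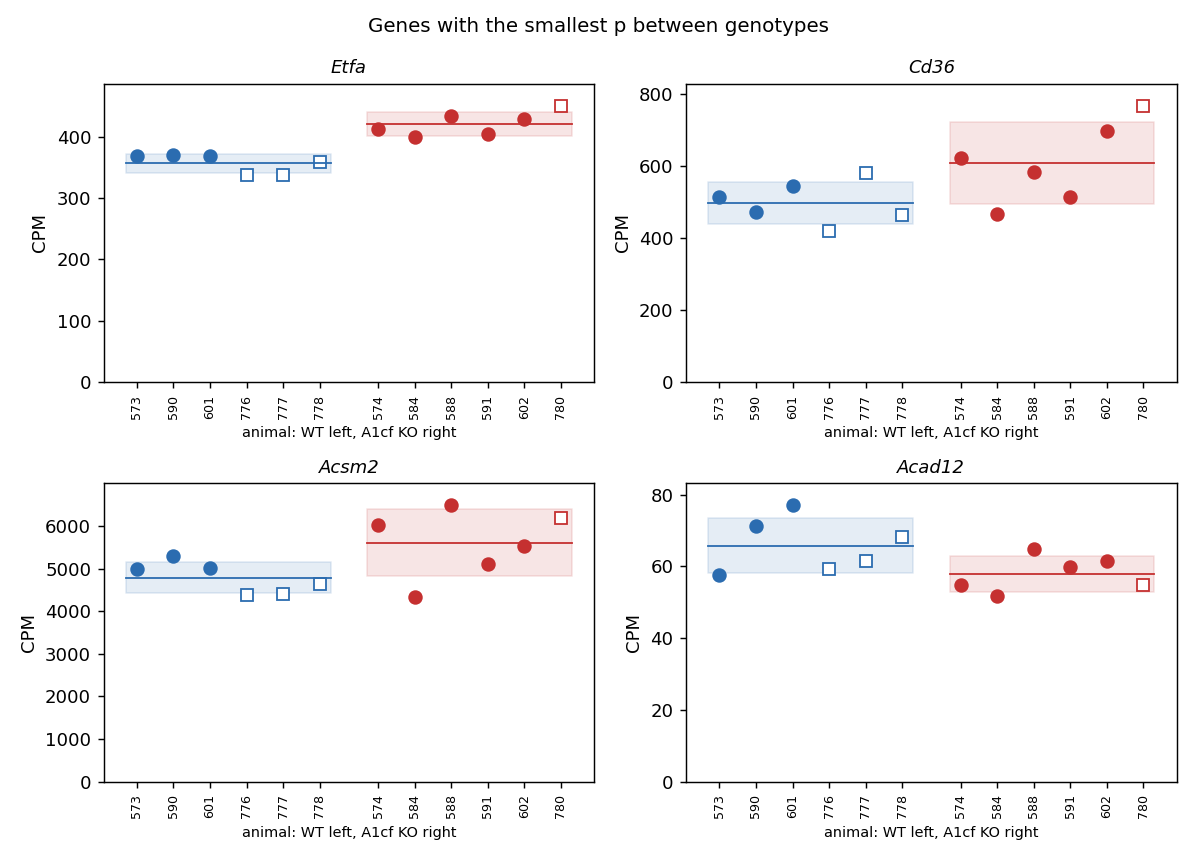
CPM (y axis, from 0) of Etfa, Cd36, Acsm2 and Acad12 in each animal (x axis), WT in blue and A1cf KO in red, filled circles for animals 573 to 602 and open squares for 776 to 780, with the mean as a line and the SD as a band. Etfa is the gene of the 4 in which no A1cf KO animal falls into the WT range of 338 to 371 CPM.

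Much larger differences lay between animals of the same genotype. Pdk4 encodes the kinase that shuts pyruvate dehydrogenase and so spares glucose when fat is burnt, and it is raised by PPARA and by fasting. In WT it was at 133 CPM in animal 573, 76.5 in 590, 248 in 601, 805 in 776, 345 in 777 and 252 in 778. In A1cf KO it was at 167 CPM in animal 574, 366 in 584, 186 in 588, 126 in 591, 251 in 602 and 698 in 780. The highest library of each genotype was from the animals numbered 776 to 780, and the lowest and highest of all differed 10.5-fold. The spread of Pdk4 within genotypes was wider than that of 98.7% of the genes tested. Its means of 310 ± 261 CPM (WT) and 299 ± 213 CPM (A1cf KO, SD, n = 6 each) gave a 95% interval of the genotype difference from -1.13 to 1.03 on the log2 scale.

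The width of this spread depended on the gene. From lowest to highest library, 22 of the 37 members differed by less than 1.5-fold and 27 by less than 2-fold. The 10 others included Fabp1 (9.92-fold), the uncoupling protein gene Ucp2 (3.51-fold), Cpt1b (3.49-fold) and the lipid droplet coat gene Plin2 (2.55-fold). Cpt1a, also a PPARA target, differed by 1.19-fold. Plin2 was lowest at 167, median 268 and highest at 404 CPM in WT animals, against 166, 208 and 423 CPM in knockouts. Its highest libraries were A1cf KO 584 and WT 776. The acyl-CoA thioesterase genes Acot1, of the cytosol, and Acot2, of mitochondria, were highest in WT 776, A1cf KO 584 and A1cf KO 780, at 292, 278 and 276 CPM and at 93.8, 83.6 and 75.5 CPM. The other 9 libraries held 145 to 195 CPM of Acot1 and 39.6 to 57.2 CPM of Acot2. Acot1 and Acot2 are neighbours on chromosome 12, and 24.5% of the 50-base words of Acot2 also occur in Acot1, so their counts are not fully separate. Angptl4, a secreted inhibitor of lipoprotein lipase, ran from 177 to 363 CPM in WT (median 316) and from 200 to 397 CPM in A1cf KO (median 262). Ucp2 was at 291 ± 106 and 278 ± 83.6 CPM (SD, n = 6 each).

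**Figure D4:**
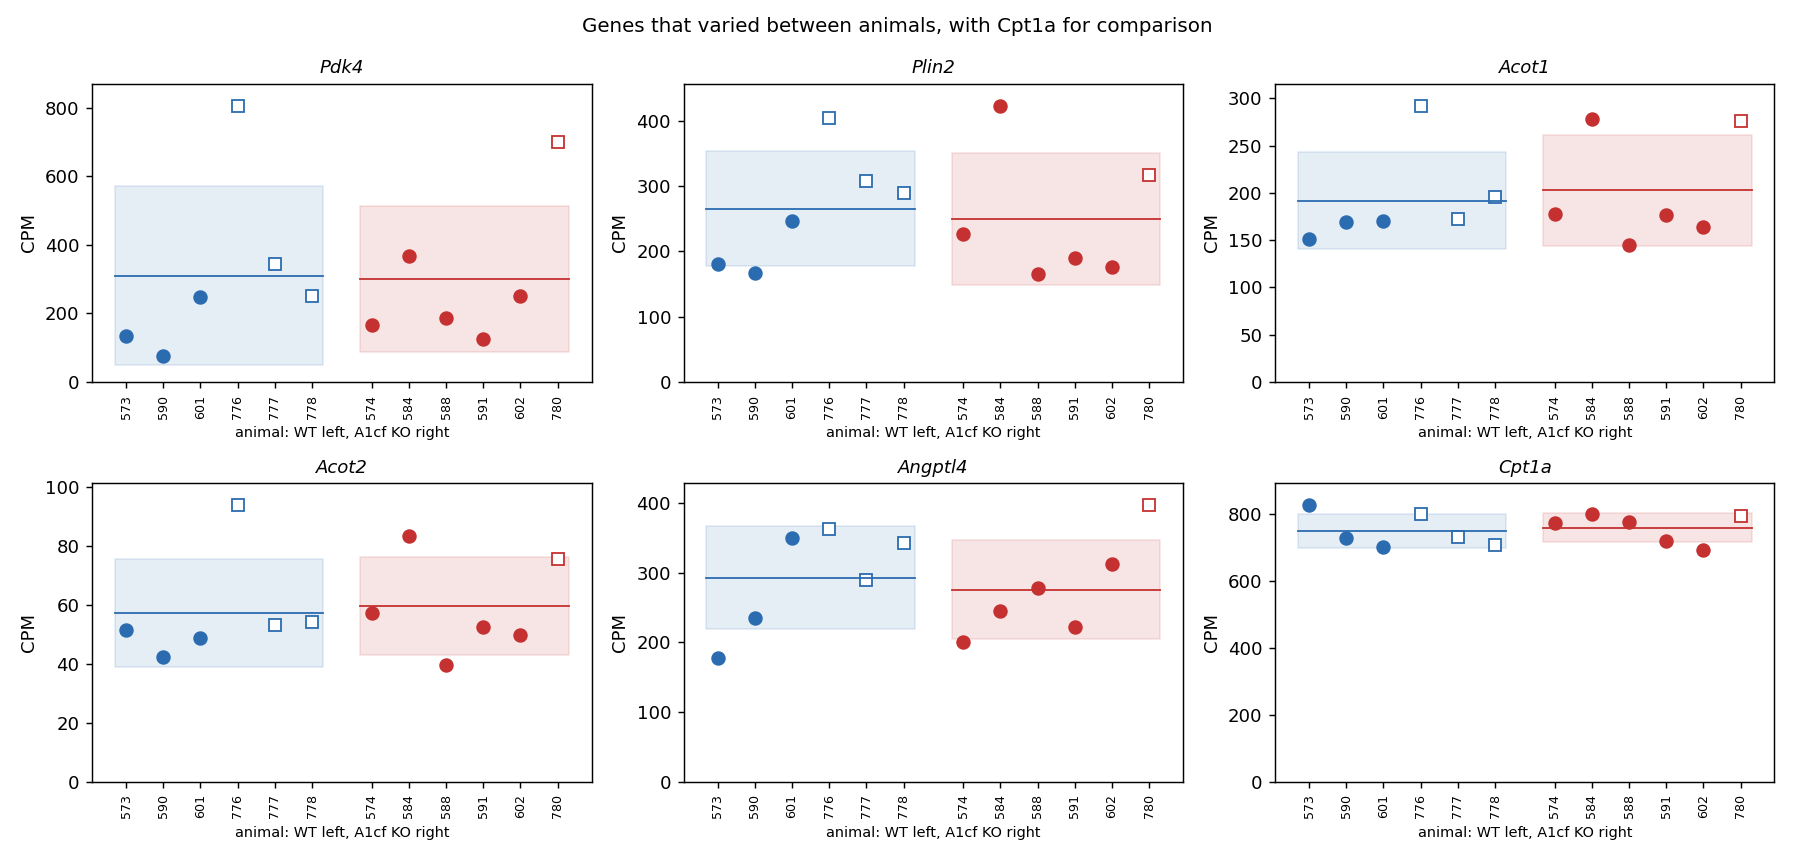
CPM (y axis, from 0) of Pdk4, Plin2, Acot1, Acot2, Angptl4 and Cpt1a in each animal (x axis), WT in blue and A1cf KO in red, filled circles for animals 573 to 602 and open squares for 776 to 780, with the mean as a line and the SD as a band. Pdk4 runs from 76.5 to 805 CPM, while Cpt1a stays between 691 and 825 CPM.

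Within genotypes, Pdk4 covaried with 4 of 11 other members that handle uptake, storage, thioesters or fuel choice. On log2 CPM with each genotype mean subtracted, Pearson's r over 12 libraries was 0.83 for Plin2 (permutation p = 0.0013, adjusted over the 11 p = 0.014, Spearman's rho 0.89, permutation p = 0.00082, adjusted 0.0090). It was 0.79 for Acot2 (permutation p = 0.0040, adjusted 0.015, rho 0.71, permutation p = 0.017, adjusted 0.048) and 0.78 for Acot1 (permutation p = 0.0041, adjusted 0.015, rho 0.81, permutation p = 0.0026, adjusted 0.014). For Angptl4 it was 0.74 (permutation p = 0.011, adjusted 0.030, rho 0.76, permutation p = 0.010, adjusted 0.037). The other 7 did not pass, with r of 0.58 for Ucp2, 0.44 for Acsl1, 0.42 for Fabp3, 0.30 for Fabp1, 0.28 for Cpt1a, 0.13 for Cd36 and -0.05 for Ppara. The calls did not hold over fewer libraries, though r for these 4 stayed at 0.63 or above when the extreme ones were left out. Without WT 590 and WT 776, the libraries farthest from the Pdk4 median, r was 0.75 for Plin2, 0.63 for Acot2, 0.77 for Acot1 and 0.75 for Angptl4, and 0 of 11 passed (permutation, lowest adjusted p = 0.096). Without WT 776 alone r was 0.78, 0.66, 0.66 and 0.73 in the same order, and again 0 passed (permutation, adjusted p = 0.083 for each of the 4). Within the 8 animals 573 to 602 r was 0.70, 0.54, 0.47 and 0.53 in that order, and 0 passed (exact permutation, adjusted p = 0.60).

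The animal numbers fall into a lower run, 573 to 602 with 3 WT and 5 A1cf KO, and a higher run, 776 to 780 with 3 WT and 1 A1cf KO. The labels do not say whether the runs mark litters, dates or batches. In a fit of genotype and run, Pdk4 was higher in 776 to 780 by 1.64 on the log2 scale (SE 0.36, edgeR adjusted p = 0.025). It was the only 1 of the 37 to pass in this fit, where 2.9% of all genes did (2.1% in this direction). Unadjusted p was under 0.05 for 14 of the 37, against 18.4% of all genes, and 24 were higher and 13 lower in 776 to 780. Next after Pdk4 in size came Cpt1b (0.89), Plin2 (0.64), Angptl4 (0.49), Acot1 (0.47) and Acot2 (0.47) on the higher side, and Acsm1 (-0.56) and Acsm5 (-0.31) on the lower side, none of them past the edgeR threshold. DESeq2 called Acsm5, Angptl4 and Pdk4 for the run. The share of all genes that DESeq2 called for the run was not counted, so this is not read as a result about the members. The Pdk4 call was lost without WT 573 (1.59, edgeR adjusted p = 0.053), WT 590 (1.46, 0.060), WT 776 (1.28, 0.079) or A1cf KO 780 (1.62, 0.17). Endothelial markers moved with the runs as well, with 7 of 8 past the threshold, and their part in the Pdk4 value was not tested. With the run in the fit, genotype called 0 of the 37 (0.142% of all genes) by edgeR, with 6 at an unadjusted p under 0.05 (12.9% of all genes). The Pdk4 genotype difference then was 0.54 (edgeR adjusted p = 0.54), and that of Etfa was 0.23 (edgeR adjusted p = 0.11).

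**Figure D5:**
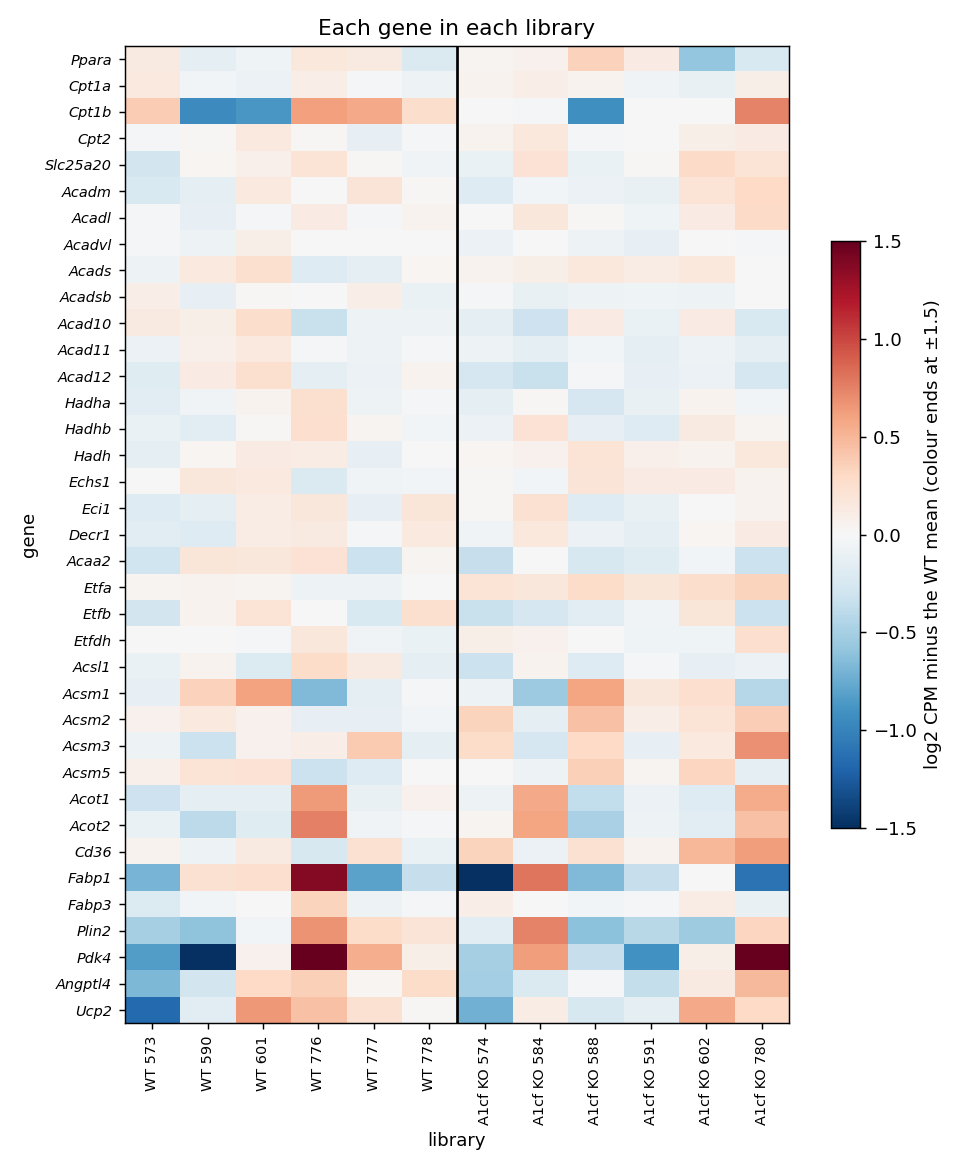
Log2 CPM of each gene (y axis) in each library (x axis) minus the WT mean of that gene, blue below and red above, with colours ending at 1.5 in either direction. The strongest colours belong to Pdk4, Fabp1, Cpt1b, Ucp2 and Plin2 and differ between animals of one genotype, and Etfa is red in all 6 A1cf KO libraries.

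The rest of the pathway was followed in 101 tested genes of 6 lists. Of these, 64 fold changes were positive and 37 negative with a median of 0.03, and by edgeR 1 passed the threshold, lower in A1cf KO, where 0.0473% of all genes passed (0.0355% lower). At an unadjusted p under 0.05 there were 11, against 10.4% of all genes. PPAR receptors, RXR partners and coactivators were positive in 14 of 18. Among them the coactivator gene Ppargc1a was at 78.3 ± 11.3 CPM (WT) and 67.8 ± 4.55 CPM (A1cf KO, log2 fold change -0.21, edgeR adjusted p = 0.43), and the difference was -0.11 with the run in the fit and -0.03 within animals 573 to 602. The deacetylase gene Sirt1 was at 20.3 ± 3.03 and 23.9 ± 2.30 CPM (0.23, edgeR adjusted p = 0.41). Peroxisomal and microsomal PPARA targets were positive in 15 of 28. They include Acot8, a peroxisomal thioesterase, which ran from 24.3 to 30.0 CPM in WT and from 22.1 to 23.8 CPM in A1cf KO. The ranges did not overlap, and the log2 fold change was -0.28 (SE 0.057, edgeR adjusted p = 0.14, DESeq2 adjusted p = 0.0031). Of all genes, 0.84% had ranges without overlap and DESeq2 called 1.11%. Without WT 590 Acot8 passed by edgeR as well, at -0.31 (edgeR adjusted p = 0.046). With any other single library left out it did not pass (edgeR adjusted p from 0.15 to 0.29). Within animals 573 to 602 its difference was -0.25 (edgeR adjusted p = 0.54). Aldh3a2, which oxidises fatty aldehydes, was at 340 ± 22.0 and 397 ± 34.0 CPM (0.22, edgeR adjusted p = 0.30).

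From this list, 3 other PPARA targets are given that were picked after their values were seen. The bifunctional enzyme gene Ehhadh, of peroxisomal oxidation, was at 2024 ± 349 and 1942 ± 334 CPM. The omega-hydroxylase genes Cyp4a10 and Cyp4a14 were at 2442 ± 593 and 2486 ± 662 CPM and at 1751 ± 831 and 1643 ± 697 CPM (WT and A1cf KO, SD, n = 6 each). Their ranges overlapped between genotypes, and edgeR adjusted p lay between 0.90 and 0.97. Within WT, Cyp4a14 ran from 711 CPM to 3186 CPM.

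In the other lists, other mitochondrial acyl-CoA enzymes were positive in 18 of 25, lipolysis and lipid droplet genes in 10 of 16, ketone body enzymes in 5 of 7, and carnitine supply and transport in 2 of 7. The pyruvate dehydrogenase kinase Pdk1, a relative of Pdk4, was at 57.1 ± 9.44 CPM (WT) and 45.8 ± 5.30 CPM (A1cf KO, -0.32, edgeR adjusted p = 0.33). Bbox1, the last enzyme of carnitine synthesis, was low at 4.0 ± 1.52 and 2.42 ± 0.884 CPM (-0.73, edgeR adjusted p = 0.37). Lpl, the lipase that Angptl4 inhibits, was at 540 ± 69.3 and 674 ± 229 CPM (0.32, edgeR adjusted p = 0.55). The Lpl difference was 0.14 without A1cf KO 602 and 0.20 without both fat-rich libraries, and the part of fat RNA in it was not tested further. The droplet protein gene Plin3 was at 40.3 ± 2.59 and 35.8 ± 2.11 CPM (-0.17, edgeR adjusted p = 0.35). Acss1, which activates acetate in mitochondria, was at 230 ± 34.2 and 199.6 ± 21.8 CPM (log2 fold change -0.21), and the serine hydroxymethyltransferase gene Shmt1 at 78.1 ± 5.90 and 68.9 ± 9.25 CPM (SD, n = 6 each). Within animals 573 to 602 the Pdk1 difference was -0.16, that of Acss1 -0.12 and that of Aldh3a2 0.14.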

How the data were processed

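Whole-kidney RNA libraries of 6 WT and 6 A1cf KO mice were compared through counts of reads per gene. Per the file headers, the authors counted these deposited reads over exons grouped by gene name with featureCounts 1.5.0-p2 and GENCODE M8, with no option for strand set, so overlapping genes on opposite strands are not separated. The submitters' processing notes name STAR, DESeq2 and mm10, with no version. The deposited Length column (another value, merged exon bases) served for RPKM. From the counts, edgeR 4.0.16 (R 4.3.3) with filterByExpr, TMM and the quasi-likelihood F test was fitted to 16910 genes with genotype as the only term, adjusted by Benjamini-Hochberg over all genes at 0.05. Log2 CPM used a prior count of 2. DESeq2 1.42.0 and limma 3.58.1 (voom) were alternatives, as were other scalings and filters, the animal number run, and leaving out each library. Pdk4 relations were tested with 100000 permutations within genotype, or exactly within animals 573 to 602. The fits were tested on simulated counts, where DESeq2 made a larger share of false calls than its threshold and edgeR and voom stayed near theirs. These counts were drawn with edgeR's own dispersion and scaling estimates, so they cannot rank the tests on the real counts.

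The design text calls the 6 animals of each group biological replicates. The members and lists were chosen with earlier results of these data known. Named are all members, the genes of the pathway lists by a fixed rule on p, and those said to be picked later. In the pathway lists 1 gene that passed the threshold is not reported here. Total counts ran from 26671705 to 52899139, and reads without molecular identifiers are not independent molecules. Precision also depended on the spread between the 6 animals of each group. Shared sequence was counted as 50-base words in GENCODE transcripts of a later release than the counting one, and the read length is not given in the sources used here.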

Additional observations from a re-analysis of the deposited data

Results flagged for a closer look

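Of 74 groups of 6 libraries (37 genes in each genotype), 6 held a library far from the other 5, and all 6 were WT 776, which also had the fewest counts. Chance gives about 1 in 20 such groups for each test, and the 37 genes are not independent. WT 776 stood at 805 CPM of Pdk4, where the other WT libraries held 76.5 to 345 CPM. It stood at 292 CPM of Acot1 (others 151 to 195), 93.8 CPM of Acot2 (others 42.3 to 54.3) and 10.8 CPM of Fabp1 (others 2.35 to 4.92). Fabp3 was at 57.6 CPM (others 39.8 to 45.8) and Etfdh at 341 CPM (others 282 to 303). The flags rest on CPM, and on log2 CPM a high library lies less far out. On that scale WT 776 was at 9.65 for Pdk4, where the other WT libraries ran from 6.26 to 8.43. Whether the depth of this library has a part in these values was not tested.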

How the results depend on the processing

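No paired analysis was possible because the genotypes share no replicate number. edgeR called 8 genes, 170 by DESeq2, 24 with the animal number run in the fit and 6 to 12 with 1 library left out. Of the 37 members it called 0, also under every alternative except DESeq2 (1, Etfa), and of the pathway lists 1, against 2 by DESeq2 and 1 to 2 with 1 library left out (2 without WT 590). The median over members lay between -0.033 and 0.033 with 1 library left out. Between the runs 1 member was called, 3 by DESeq2 (share over all genes not counted) and 0 to 3 with 1 library left out. The number of genes that varied with Pdk4 fell from 4 to 0 without the 2 farthest libraries, within animals 573 to 602, with run means also subtracted (r 0.71 for Plin2, 0.69 for Acot2, 0.62 for Acot1, 0.49 for Angptl4), and without WT 776, the last 2 chosen after seeing the data. Signs turned for some differences that did not pass the test. With the run in the fit Cpt1b turned from -0.10 to 0.22 and Plin2 from -0.09 to 0.16. Ppara was at 0.053 within animals 573 to 602 and 0.10 without the 2 fat-rich libraries (an alternative also chosen after seeing the data), and from -0.098 to 0.075 with 1 library left out. Acadm was from -0.045 to 0.057 with 1 library left out. Pdk4 was at 0.082 by voom, 0.54 with the run, 0.52 within 573 to 602, 0.029 without the fat-rich libraries, and from -0.50 to 0.50 with 1 library left out. Angptl4 was at 0.065 with the run. Pearson's r with Pdk4 turned for Acsl1 within 573 to 602 (-0.12) and for Fabp3 without the 2 farthest libraries (-0.10) and without WT 776 (-0.15). It also turned for Fabp1 without WT 776 (-0.029), and for Ppara (0.042) and Cd36 (-0.11) with the means of genotype within run subtracted. The cause of each was not tested.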
